A study of Homo sapiens with 6 samples.

Results

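The MAF family of basic leucine zipper transcription factors was followed in RPMI8226, KMS11 and U266, 3 established human cell lines of multiple myeloma, a cancer of plasma cells. Genes were taken by symbol from the platform annotation: of the 4 listed family genes, MAF, MAFF and MAFG were named there, among 14884 named genes in all, and MAFK was not analysed here. Each named member had 1 probe set (16828577 for MAF, 16930051 for MAFF and 16850021 for MAFG). Whole-transcript Affymetrix arrays were run on cells of each line transfected with 100 nM miR-10a mimic and on cells of the same line transfected with 100 nM scrambled control, both collected after 48 h, with 1 array for each line and treatment. The mimic and control groups therefore held 3 arrays each, 1 per line, and each line was represented by 2 arrays that differed in treatment. Whether the arrays of a line came from separate cultures is not labelled. P-values thus measure the spread between these arrays, which may be technical, and each line stands for itself, not for a class of tumours.

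MAF, also called c-MAF, is a large MAF protein with a transactivation domain. In multiple myeloma it is known as an oncogene that translocations place beside immunoglobulin gene enhancers, and RPMI8226 and KMS11 are known to carry such MAF translocations. MAFF, MAFG and MAFK are small MAF proteins that lack a transactivation domain. They pair with the cap'n'collar factors NFE2, NFE2L1, NFE2L2 and NFE2L3, which activate transcription, or with BACH1 and BACH2, which repress it, and the pairs bind antioxidant response elements and related MAF recognition elements (MAREs).

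The agent and the reference promoters are shown first. The agent defines the treatment, and the promoters show which of the motifs searched stand near each member's start site. Sequences are those of RefSeq (GRCh38.p14). The mature 5p strand of miR-10a, encoded on chromosome 17, is given with its seed, bases 2 to 8, in capitals. The labels do not say which strand the mimic carried.
hsa-miR-10a-5p: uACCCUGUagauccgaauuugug
The 250 bases before the annotated start of each member are given 5′ to 3′ on the gene's strand. They lie at chr16:79600738-79600987 on the minus strand for MAF, at chr22:38201744-38201993 on the plus strand for MAFF and at chr17:81927736-81927985 on the minus strand for MAFG, and capitals mark the motif matches described next.
MAF: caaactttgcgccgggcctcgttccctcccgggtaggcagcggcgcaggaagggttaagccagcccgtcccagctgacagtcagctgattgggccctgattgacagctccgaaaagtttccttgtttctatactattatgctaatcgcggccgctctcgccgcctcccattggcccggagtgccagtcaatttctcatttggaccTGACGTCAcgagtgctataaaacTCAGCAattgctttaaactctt
MAFF: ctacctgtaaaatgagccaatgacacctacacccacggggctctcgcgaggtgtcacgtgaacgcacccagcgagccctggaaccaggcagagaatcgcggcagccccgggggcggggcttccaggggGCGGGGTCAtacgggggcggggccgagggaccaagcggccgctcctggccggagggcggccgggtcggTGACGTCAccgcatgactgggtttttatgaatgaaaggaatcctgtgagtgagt
MAFG: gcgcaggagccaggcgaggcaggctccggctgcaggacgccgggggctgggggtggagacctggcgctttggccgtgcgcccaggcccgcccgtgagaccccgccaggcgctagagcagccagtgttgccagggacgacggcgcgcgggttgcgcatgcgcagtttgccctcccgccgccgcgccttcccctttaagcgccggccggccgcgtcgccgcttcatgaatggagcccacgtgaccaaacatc
The cAMP response element TGACGTCA, a palindrome, stood once in the MAF window, with its first base 45 bases before the start, and once in the first of the 2 MAFF windows, 54 bases before the start. It was absent from the MAFG window and from the other MAFF window. Of 35116 RefSeq windows of the same 300 bases, which run to 50 bases after the start, 1.85% held it. The MARE core TGCTGA was found once in the MAF window, on the minus strand 22 bases before the start, against 17.3% of all windows, and in no window of the small MAF genes. The antioxidant response core TGACNNNGC was found once, on the minus strand of the MAFF window (13.3% of all windows). The AP-1 element TGACTCA (4.95% of windows) and the full palindromic MARE (0 of 35116 windows) were found in none of the members. Both strands were searched, the matches within a member did not overlap, and the motifs were chosen after the windows had been read, so these matches are descriptions only.

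The lines were checked against plasma cell genes before the members were described. Of 8 plasma cell markers, 6 were named. IRF4, a plasma cell transcription factor, lay between 10.26 and 10.89 log2 units in all 6 arrays and XBP1, the secretory pathway regulator, between 9.34 and 9.65. The other 4 were uneven between lines. SDC1, encoding syndecan-1, ranged from 5.52 in KMS11 to 9.49 in U266, and CD38 stood at 9.90 and 9.99 in RPMI8226 but between 3.80 and 4.92 in the other lines. SLAMF7, encoding a surface receptor, lay between 7.23 and 7.73 in U266 but between 3.27 and 3.79 in RPMI8226 and KMS11, and MZB1, encoding an endoplasmic reticulum protein of antibody-secreting cells, ranged from 6.11 in U266 to 10.03 in RPMI8226. Of 16 markers of B, T, myeloid, stromal, endothelial and erythroid cells, 7 were named, and 6 of these lay between 2.31 and 4.24 in every array. The exception was PECAM1, which reached 5.77 and 6.08 in U266. Across 7442 tested genes, r was 0.992 to 0.993 within a line and 0.715 to 0.779 between lines.

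MAF was the family member that separated the lines most. It stood at 10.56 log2 units with mimic and 10.57 with control in RPMI8226, at 8.91 with mimic and 8.96 with control in KMS11, and at 4.96 with mimic and 4.57 with control in U266. Both arrays of RPMI8226 were above both of KMS11, and these were above both of U266, so the order held in each treatment. The 2 arrays of a line lay 0.01 apart for RPMI8226, 0.05 for KMS11 and 0.40 for U266, against 1.63 or more between lines. RPMI8226 exceeded U266 by 5.80 log2 units, or 55.7-fold (95% confidence interval of the log2 difference 5.48 to 6.12, limma's adjusted p = 1.49e-06). KMS11 exceeded U266 by 4.17, or 18.0-fold (3.86 to 4.49, limma's adjusted p = 5.21e-06), and RPMI8226 exceeded KMS11 by 1.63, or 3.09-fold (1.31 to 1.95, limma's adjusted p = 0.000133). The values of U266 lay at the expression filter of 4.70, where signal over background is not known, so the folds against U266 are array values and not exact ratios of transcript. In bulk RNA of a line, fewer cells that carry a transcript and less of it per cell cannot be told apart. The levels of MAF in these arrays were known before it was tested, so its p-values are no independent evidence.

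**Figure D1:**
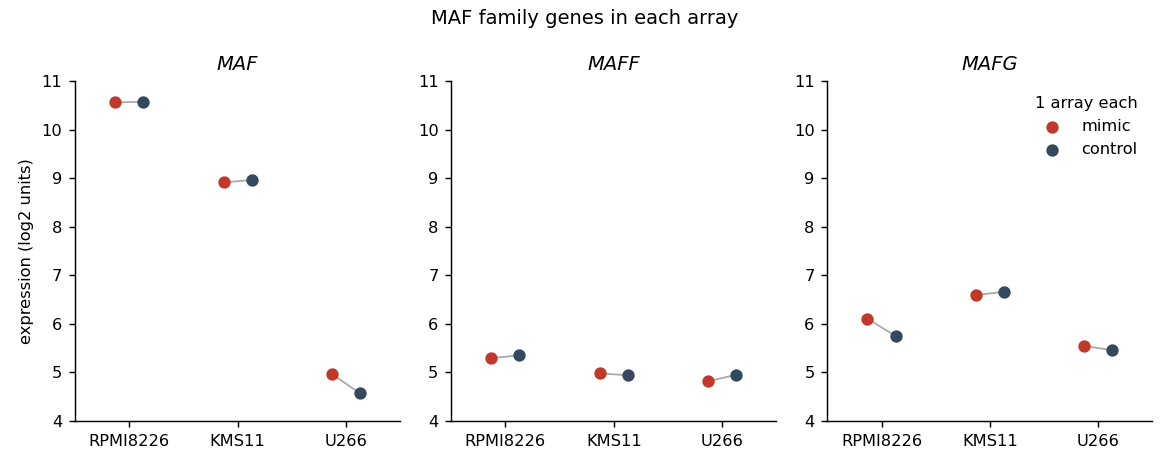
Expression of MAF, MAFF and MAFG (y axis, log2 units) in the 3 lines (x axis), with 1 point per array, mimic left and control right, joined by a line within each cell line. MAF falls in steps across RPMI8226, KMS11 and U266, with both arrays of a line close together, while MAFF stays between 4.82 and 5.35 and MAFG between 5.46 and 6.66.

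MAFG had a different order, with KMS11 highest. It stood at 6.11 with mimic and 5.75 with control in RPMI8226, at 6.59 with mimic and 6.66 with control in KMS11, and at 5.54 with mimic and 5.46 with control in U266. The arrays of no 2 lines overlapped, but those of RPMI8226 lay 0.36 apart, close to the 0.43 that separated its mean from that of U266. RPMI8226 was lower than KMS11 by a log2 difference of -0.70 (95% confidence interval -0.99 to -0.41, limma's adjusted p = 0.0029), or 1.62-fold higher in KMS11. KMS11 exceeded U266 by 1.12, or 2.18-fold (0.83 to 1.42, limma's adjusted p = 0.000439). RPMI8226 exceeded U266 by 0.43, or 1.34-fold (0.14 to 0.72, limma's adjusted p = 0.0196). That last call was lost without the mimic array of RPMI8226, when the difference was 0.25 (limma's adjusted p = 0.12), and without the mimic array of U266, when it was 0.40 (limma's adjusted p = 0.0659).

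MAFF varied least. It stood at 5.29 with mimic and 5.35 with control in RPMI8226, at 4.98 with mimic and 4.94 with control in KMS11, and at 4.82 with mimic and 4.95 with control in U266. Both arrays of RPMI8226 were above the other 4, and the arrays of KMS11 and U266 overlapped. RPMI8226 exceeded U266 by 0.44, or 1.36-fold (95% confidence interval 0.23 to 0.65, limma's adjusted p = 0.00485), and KMS11 by 0.36, or 1.29-fold (0.15 to 0.57, limma's adjusted p = 0.0111). KMS11 and U266 differed by 0.08, with an interval from -0.13 to 0.29 (limma's adjusted p = 0.473). The difference from KMS11 did not pass without the control array of RPMI8226 (limma's adjusted p = 0.0567), without its mimic array (0.0534) or without the control array of KMS11 (0.0948).

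Differences between these lines were the rule across the arrays, and the members' calls are read against that. All 3 members passed limma's F test over the lines, as did 82.4% of the 7442 tested genes. Between RPMI8226 and KMS11, all 3 passed, against 65% of genes. MAF and MAFF were higher in RPMI8226 (29.4% of genes) and MAFG lower (35.6%). Between RPMI8226 and U266, all 3 were higher in RPMI8226, against 32.4% of genes higher, 35.1% lower and 67.4% called in either direction. Between KMS11 and U266, MAF and MAFG were higher in KMS11, against 34% of genes higher, 29.8% lower and 63.8% called in either direction. A call with a difference of at least 2-fold was reached by 20.5% of genes between RPMI8226 and KMS11, by 22.2% between RPMI8226 and U266 and by 18.4% between KMS11 and U266, and among the members by MAF in all 3 contrasts and by MAFG between KMS11 and U266. Arrays that did not overlap were seen for 83.5%, 84.4% and 82.3% of genes in these 3 contrasts, in the same order. The size of the difference is where MAF stood apart from most genes. Its line means spanned 5.80 log2 units, a span reached by 31 of 7442 genes, itself included (0.417%). The span of MAFG, 1.12, was reached by 30.7% of genes and that of MAFF, 0.44, by 75%.

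MAFA and NRL, large relatives of MAF, did not share its differences between lines. MAFA, best known from insulin-producing beta cells, stood at 4.78 with mimic and 4.92 with control in RPMI8226, at 5.01 with mimic and 5.04 with control in KMS11, and at 4.89 with mimic and 4.85 with control in U266. It passed in none of the 3 contrasts (limma's adjusted p from 0.129 to 0.875). NRL, a photoreceptor factor of the same subfamily, averaged 4.60, below the expression filter of 4.70, and lay between 4.41 and 4.87 in all arrays. Both genes thus lay near the filter, where signal over background is not known, so their lack of a difference is uncertain.

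Genes reported high in MAF-translocated myeloma did not share a common order. Of 9 such genes listed, 5 were named and 4 tested. All 4 were higher in RPMI8226 than in U266 (32.4% of all tested genes were), and 3 of 4 were higher in RPMI8226 than in KMS11 (29.4% of genes). Between KMS11 and U266, where MAF differed by 4.17, 2 of 4 were higher in KMS11 (34% of genes) and 1 was lower (29.8%). The list's median difference was 2.20 for RPMI8226 against KMS11, 1.60 for RPMI8226 against U266 and 0.43 for KMS11 against U266, beside medians of -0.04, -0.0034 and 0.04 over all tested genes. CX3CR1 passed the filter through RPMI8226 alone, where it is high, so its calls there do not count as support. Without it, all 3 remaining genes were higher in RPMI8226 than in U266 and 2 of 3 were higher than in KMS11, and the middle values were those of CCR1 (1.34) and CCND2 (0.99).

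CCND2, encoding cyclin D2, a cell cycle partner of CDK4 and CDK6, followed the order of MAF. It stood at 10.36 with mimic and 10.40 with control in RPMI8226, at 9.35 with mimic and 9.42 with control in KMS11, and at 8.44 with mimic and 8.58 with control in U266. No arrays of different lines overlapped. Its steps were smaller than those of MAF: 0.99 from RPMI8226 to KMS11 and 0.88 from KMS11 to U266 (limma's adjusted p = 0.000152 and 0.000272). DEPTOR, an inhibitor of mTOR kinase, was at 8.62 with mimic and 8.65 with control in RPMI8226, at 8.77 with mimic and 8.95 with control in KMS11, and at 7.495 with mimic and 7.66 with control in U266. It was 2.08-fold higher in RPMI8226 than in U266 (limma's adjusted p = 0.000133) and 2.43-fold higher in KMS11 than in U266 (8.05e-05), and RPMI8226 and KMS11 did not pass (0.0605).

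The chemokine receptor genes of the list departed from MAF in KMS11. CCR1, a receptor for CCL3 and related ligands, stood at 8.30 with mimic and 8.27 with control in RPMI8226, at 4.90 with mimic and 4.84 with control in KMS11, and at 7.01 with mimic and 6.87 with control in U266. KMS11, with high MAF, thus had less CCR1 than U266, with low MAF, by a log2 difference of -2.07 (limma's adjusted p = 1.22e-05). The CCR1 values of KMS11 lay near the filter, where signal over background is not known, so the size of that difference is uncertain. CX3CR1, the fractalkine receptor gene, stood at 8.06 with mimic and 7.32 with control in RPMI8226, at 3.25 with mimic and 3.53 with control in KMS11, and at 3.66 with mimic and 3.17 with control in U266. Both arrays of RPMI8226 were above the other 4, and KMS11 and U266 overlapped. The values of KMS11 and U266 lay below the filter, in the range of the markers of other cell types, so no fold against them is given. TLR4, a receptor for bacterial lipopolysaccharide, averaged 4.23, below the filter, and was highest in RPMI8226, at 4.76 with mimic and 5.33 with control.

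**Figure D2:**
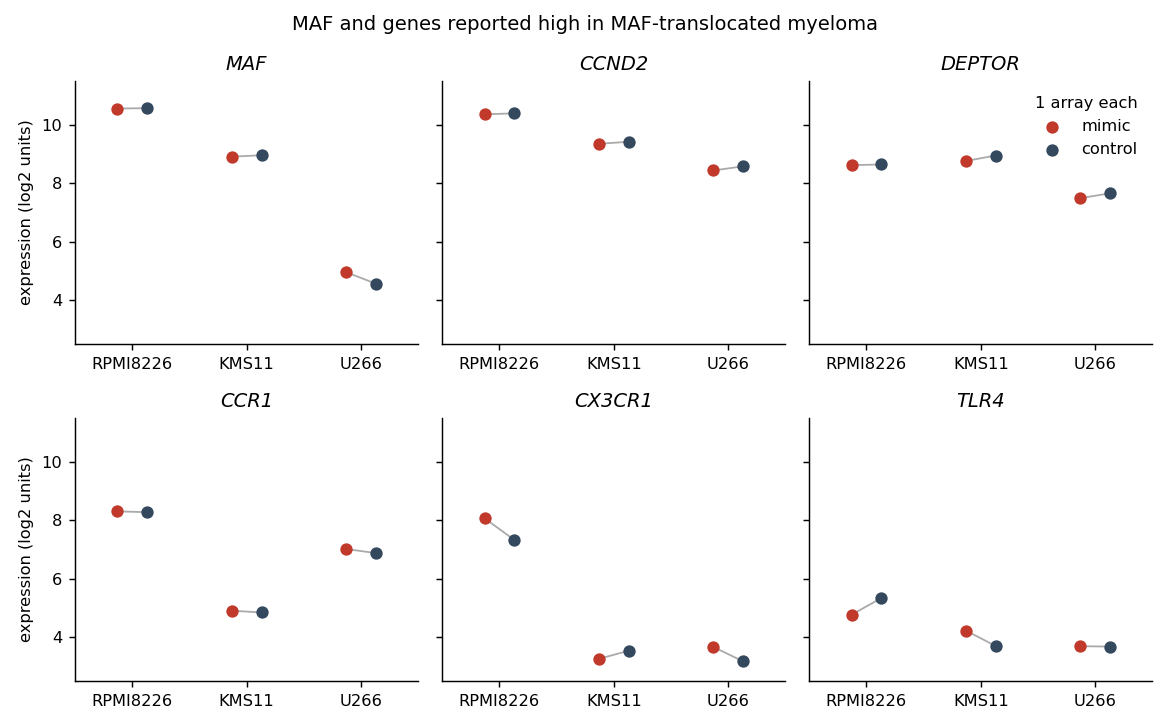
Expression of MAF and of 5 genes reported high in MAF-translocated myeloma (y axis, log2 units) by line (x axis), 1 point per array, mimic left and control right. CCND2 steps down with MAF, DEPTOR is lower in U266, and CCR1 and CX3CR1 are high in RPMI8226 but at 4.90 or below in KMS11.

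The genes whose profile lay nearest to that of MAF were sought among 6797 tested protein-coding genes, by the root mean square difference over the 6 arrays after each gene was centred on its mean. CD99, a cell surface glycoprotein gene, was nearest, at 0.17 log2 units, followed by DOCK10, a guanine nucleotide exchange factor gene (0.21), MYC (0.30), LAPTM5, a lysosomal membrane protein gene of blood cells (0.38), ANXA1, encoding annexin A1 (0.43), and PELI1, a ubiquitin ligase gene (0.44). CD99 stood at 9.96 with mimic and 10.02 with control in RPMI8226, at 8.49 with mimic and 8.497 with control in KMS11, and at 4.11 with mimic and 4.25 with control in U266. The U266 pair of MYC ran opposite to that of MAF, at 4.43 with mimic and 4.92 with control. In U266, CD99, DOCK10 and ANXA1 lay below the filter of 4.70 in both arrays, and MYC did with mimic. Signal over background is not known there, so the depth of their fall in U266 is uncertain. LAPTM5 lay higher in U266, at 6.99 with mimic and 7.02 with control, and PELI1 at 4.90 with mimic and 4.92 with control. The 6 arrays are 3 pairs that share a line, so the likeness to MAF is that of 3 line levels and is given as a description. For MAFG, the nearest profiles were those of HGS (0.08), an endosomal sorting gene, RHOT1 (0.08), a mitochondrial transport GTPase gene, and DTL (0.09), a substrate receptor of a ubiquitin ligase. MAFF, whose line means spanned less than 1 log2 unit, was not searched.

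**Figure D3:**
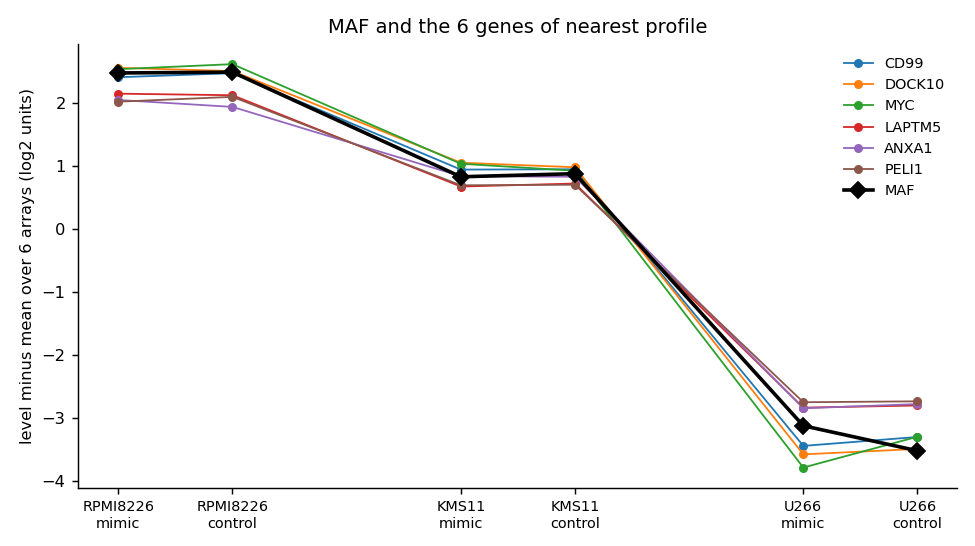
Level minus the gene's mean over 6 arrays (y axis, log2 units) for MAF (black diamonds) and the 6 protein-coding genes of nearest profile (coloured), in each array (x axis, mimic left of control within a line). The 7 profiles step down together across the lines and part most in U266, where MAF and MYC move in opposite directions between mimic and control.

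The neighbours of MAF on chromosome 16 were examined because the translocations known for these lines break near it. Of the 5 nearest protein-coding genes on either side in the reference table, 6 of 10 were named and 5 tested. WWOX, a tumour suppressor gene at a fragile site and the next protein-coding gene on one side, stood at 5.53 with mimic and 5.69 with control in RPMI8226, at 5.47 with mimic and 5.59 with control in KMS11, and at 5.51 with mimic and 5.61 with control in U266. Its line means thus lay within the gap between the 2 arrays of a line, and it passed in none of the contrasts (limma's adjusted p from 0.402 to 0.745). The other 4 tested neighbours were all lower in RPMI8226 than in KMS11, opposite to MAF, as were 35.6% of all tested genes. NUDT7 passed the filter only through KMS11, where it is high, so its calls there do not count as support. Without it, ATMIN, CENPN and CMC2 remain, and these were also lower in RPMI8226 than in U266 (35.1% of genes were). Between KMS11 and U266 the direction was that of MAF for CMC2 and ATMIN, higher in KMS11 by 0.50 and 0.23 (34% of genes were higher). Limma's adjusted p was 0.00587 for CMC2 and 0.0472 for ATMIN, while CENPN did not pass (0.593). With an array left out, this difference lay between 0.38 and 0.62 for CMC2 and between 0.20 and 0.26 for ATMIN. ATMIN was called in none of these fits, and CMC2 was not called in all of them. ATMIN, a cofactor of the ATM kinase, was at 7.75 with mimic and 7.59 with control in RPMI8226, at 9.17 with mimic and 9.08 with control in KMS11, and at 8.93 with mimic and 8.86 with control in U266. The log2 difference of RPMI8226 from KMS11 was -1.17 for CENPN, a centromere gene, and -0.90 for CMC2 (limma's adjusted p = 7.28e-05 and 0.000475). CMC2 encodes a mitochondrial protein. For NUDT7, a peroxisomal hydrolase gene, the difference was -1.33, given as a value only.

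Among the partners of the small MAF proteins, listed together with KEAP1, 4 of 7 genes were named and all 4 tested. NFE2L2, encoding NRF2, stood at 7.78 with mimic and 7.75 with control in RPMI8226, at 8.72 with mimic and 8.80 with control in KMS11, and at 7.16 with mimic and 7.35 with control in U266. It was highest in KMS11 and lowest in U266, the same order as MAFG. The log2 difference of RPMI8226 from KMS11 was -0.99, and KMS11 exceeded U266 2.84-fold (limma's adjusted p = 0.000218 and 5.2e-05). KEAP1, the adaptor that targets NRF2 for degradation, ran otherwise, at 7.34 with mimic and 7.24 with control in RPMI8226, at 8.14 with mimic and 7.998 with control in KMS11, and at 8.46 with mimic and 8.49 with control in U266. NFE2L1, encoding NRF1, was 1.64-fold higher in RPMI8226 than in U266 and 1.53-fold higher in KMS11 than in U266 (limma's adjusted p = 0.000431 and 0.000931). NFE2L3, encoding NRF3, lay between 7.99 and 8.34 in all arrays and passed in no contrast. NFE2, BACH1 and BACH2 were not analysed here.

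Antioxidant response genes, known targets of pairs of NRF2 and small MAF proteins, moved in both directions between lines. Of 20 listed, 10 were named and tested. Between KMS11, with the higher MAFG and NFE2L2, and U266, 5 were higher in KMS11, 1 lower and 4 not called, with a list median of 0.28 beside 0.04 over all genes. The 6 of 10 called are near the 63.8% called over all genes. BLVRB, a biliverdin reductase gene, was higher in KMS11 by 1.32 log2 units, TALDO1, a pentose phosphate pathway enzyme gene, by 1.09, SRXN1, encoding sulfiredoxin, by 0.96, and TXNRD1, encoding thioredoxin reductase, by 0.80 (limma's adjusted p from 0.000173 to 0.000593). HMOX1, encoding heme oxygenase 1, was the lower one, at 5.82 with mimic and 5.67 with control in KMS11, against 6.85 with mimic and 6.77 with control in U266. Between RPMI8226 and KMS11, 3 were higher in RPMI8226, 4 lower and 3 not called, against 65% of all genes called. TKT, encoding transketolase, was 1.90-fold higher in RPMI8226 and PRDX1, a peroxiredoxin gene, 2.20-fold higher in KMS11. Between RPMI8226 and U266, 4 were higher, 2 lower and 4 not called, against 67.4% of all genes called.

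Regulators of MAF protein stability were 6 of 7 named and all 6 tested. GSK3A and GSK3B encode the kinase that marks MAF for degradation, and both were lower in RPMI8226 than in U266, with log2 differences of -0.92 and -0.62 (limma's adjusted p = 0.00024 and 0.00169). GSK3A stood at 7.80 with mimic and 7.88 with control in RPMI8226, at 8.54 with mimic and 8.44 with control in KMS11, and at 8.79 with mimic and 8.73 with control in U266, so its order was the reverse of that of MAF. USP7, a deubiquitinase gene, was highest in RPMI8226, at 10.02 with mimic and 10.01 with control, against 9.51 in both arrays of KMS11, a 1.41-fold difference (limma's adjusted p = 0.00207). USP5, another deubiquitinase gene, lay between 7.70 and 7.93 and passed in no contrast. UBE2O, unlike GSK3A, was higher in RPMI8226 and in KMS11 than in U266, by 0.42 and 0.32 (limma's adjusted p = 0.00417 and 0.0135). HERC4 was highest in KMS11, with a log2 difference of RPMI8226 from KMS11 of -0.38 and of KMS11 from U266 of 0.36 (limma's adjusted p = 0.0243 and 0.0316). The list thus had no common direction. In all, 3 of the 6 passed between RPMI8226 and KMS11 (1 higher), 4 between RPMI8226 and U266 (2 higher) and 4 between KMS11 and U266 (2 higher). Over all tested genes, 65%, 67.4% and 63.8% passed in these contrasts, so the counts are near or below the background. The count between KMS11 and U266 was 0 without the control array of KMS11, 1 without its mimic array and 2 without either array of U266. Transcript levels do not show protein stability.

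**Figure D4:**
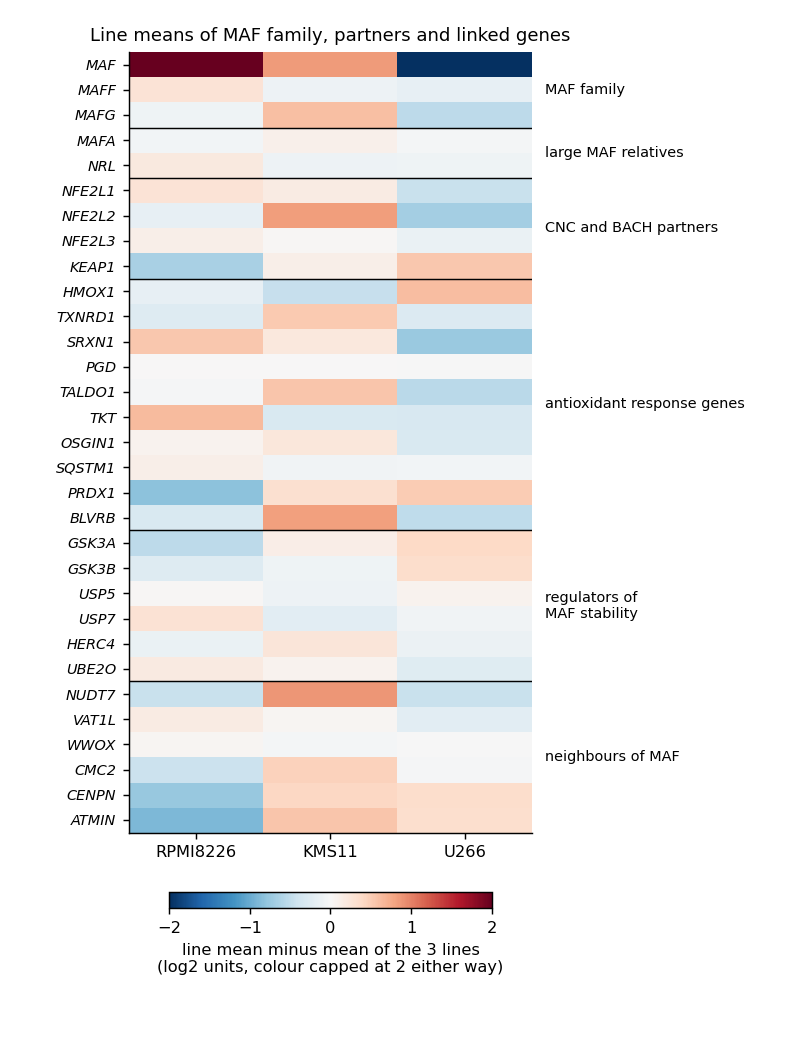
Line mean minus the mean of the 3 lines (colour, log2 units, capped at 2 in either direction) in RPMI8226, KMS11 and U266 (columns). Rows show the members, their relatives, their partners with KEAP1, antioxidant response genes, regulators of MAF stability and neighbours of MAF. MAF has the deepest colours of the rows shown, MAFG and NFE2L2 are highest in KMS11 and lowest in U266, and WWOX is near white throughout.

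The comparison of miR-10a mimic with scrambled control asked which transcripts changed when this microRNA was supplied in excess, and no family member passed it. Across lines, MAF averaged 8.15 ± 2.88 log2 units with mimic and 8.03 ± 3.11 with control (SD, n = 3 each), a mean change of 0.11 ± 0.25 (SD of 3 lines, 95% confidence interval -0.15 to 0.37, limma's adjusted p = 0.92). MAFG averaged 6.08 ± 0.52 with mimic and 5.96 ± 0.63 with control, a change of 0.13 ± 0.21 (-0.11 to 0.36, limma's adjusted p = 0.917). MAFF averaged 5.03 ± 0.24 with mimic and 5.08 ± 0.23 with control, a change of -0.05 ± 0.09 (-0.22 to 0.12, limma's adjusted p = 0.946). With the line as a block, limma called 0 of the 3 members and 0 of 7442 genes (0%), with 403 genes at an unadjusted p under 0.05. For each member, limma's interval leaves out a 1.5-fold change in either direction, as measured on these arrays, where changes of dim probe sets can be compressed. That interval borrows variance from the other genes (2 residual and 3.82 prior degrees of freedom). It thus does not rest on a member's spread over the 3 lines alone. No interval was computed from that spread, so a 1.5-fold change is not excluded.

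No member changed the same way in all 3 lines. The change of MAF was -0.01 in RPMI8226, while KMS11 had -0.05 and U266 0.40, so its mean was set by U266, the line in which it was lowest, and was -0.03 without that line. A change as wide as that in U266 was seen there for 377 of 7442 genes (5.07%). For MAFG, RPMI8226 had a change of 0.36, KMS11 of -0.07 and U266 of 0.09, and 5.75% of genes changed as widely in RPMI8226. For MAFF, RPMI8226 had -0.06, KMS11 0.04 and U266 -0.13. Values above control were thus seen for 1 of 3 members in RPMI8226 (53.8% of genes), 1 in KMS11 (49.6%) and 2 in U266 (44.2%). Of all tested genes, 26.5% kept 1 direction across the lines. No member reached 1.5-fold in any line, a size reached by 1.05% of genes in RPMI8226, 0.873% in KMS11 and 1.07% in U266.

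**Figure D5:**
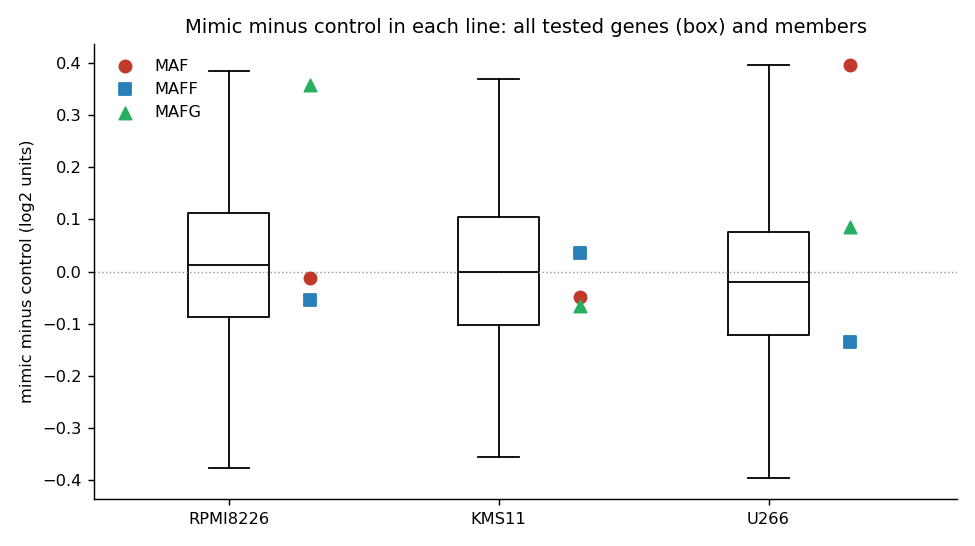
Mimic minus control (y axis, log2 units) in each line (x axis) for MAF, MAFF and MAFG, beside boxes for all 7442 tested genes, whose whiskers cover the central 95% of genes. MAF in U266 (0.40) and MAFG in RPMI8226 (0.36) lie near the upper whisker end, and the other 7 values lie between -0.13 and 0.09.

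Whether a line's change differed from that of the others was tested with a term for that line, a test added after the data were seen that leaves 1 residual degree of freedom. For MAF, the change in U266 exceeded that of the other lines by 0.43 (unadjusted p = 0.0366, limma's adjusted p = 0.747). For MAFG, the change in RPMI8226 exceeded that of the others by 0.35 (unadjusted p = 0.0737, limma's adjusted p = 0.757). The other 7 such tests of members gave unadjusted p-values of 0.181 or more. Over all 7442 genes, limma called 0 (0%) for each of the lines, with 480, 298 and 471 genes at an unadjusted p under 0.05 for RPMI8226, KMS11 and U266.

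Partners and linked genes were likewise not called between mimic and control. The lists held 4 genes of partners and KEAP1, 10 antioxidant response genes and 6 regulators of MAF stability. They also held 4 genes reported high in MAF-translocated myeloma and 5 neighbours, and 0 of all these passed limma's threshold in either direction. Their median changes were -0.03, 0.03, -0.02, -0.0029 and 0.06, beside -0.0029 over all tested genes. OSGIN1, an oxidative stress response gene, was lower with mimic in each line, at 4.73 with mimic and 4.92 with control in RPMI8226, at 4.88 with mimic and 5.09 with control in KMS11, and at 4.23 with mimic and 4.69 with control in U266. It was singled out after its values were seen, lay near the filter and did not pass (mean change -0.29, limma's adjusted p = 0.889). CX3CR1 had the widest change of these genes within a line, 0.74 in RPMI8226, with -0.28 in KMS11 and 0.49 in U266 (limma's adjusted p = 0.917).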

How the data were processed

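Expression was measured in 6 arrays. The authors deposited log2 values for 53617 probe sets, made with Affymetrix Expression Console 1.3.0 per the submitters' processing notes. How background, normalization and summarization were handled, and on which genome build, is not given in the sources used here. Array medians lay between 3.61 and 3.66, and centring between arrays is unknown. Detection calls were not used here, so low values are uncertain, and the number of arrays limits the precision. The platform annotation gave 1 gene to each of 16098 probe sets and the others are unnamed here. Of the identifiers found in the RefSeq gene table of GRCh38.p14, 0 had a symbol to update. A gene was represented by its probe set of highest mean. Tests covered the 7442 genes whose mean reached 4.70, the median over named genes. All 3 named members passed, MAF through RPMI8226 and KMS11, where it is high.

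With limma 3.58.1 in R 4.3.3, lmFit and eBayes (no variance trend) set mimic against control with a block for the cell line, and lines against each other with treatment as a covariate. P-values are two-sided and Benjamini-Hochberg adjusted over the tested genes, and a call means an adjusted p below 0.05. Arrays were paired by their labelled cell line, and after subtraction of treatment means the 2 arrays of each line had an r of 0.967 to 0.97 across genes. The fits were tested on simulated data. The members, the lists (written from general knowledge) and the tests were chosen with earlier results of these data known. Named are the members, the listed genes, the neighbours of MAF, and the 6 genes nearest to MAF and 3 nearest to MAFG. Alternatives tried were other filters, scalings, probe set rules, a variance trend, models without the block or the treatment, and leaving out arrays or lines.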

Additional observations from a re-analysis of the deposited data

How the results depend on the processing

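No member was called between mimic and control under any alternative (limma's adjusted p from 0.819 to 1.00 for MAF, 0.918 to 1.00 for MAFF and 0.910 to 1.00 for MAFG), and 0 genes were called in each. With a line left out, the change lay between -0.03 and 0.19 for MAF, -0.09 and -0.0097 for MAFF, and 0.0097 and 0.22 for MAFG. Without replicate 3, both arrays of U266, the change of MAF was -0.03 (-0.0309). Without the replicate block, the changes were again 0.11, -0.05 and 0.13, and 0 genes were called. Between lines, MAF passed in all 3 contrasts under every alternative run. With an array left out, the MAFF difference of RPMI8226 from KMS11 lay between 0.30 and 0.43 (limma's adjusted p from 0.0119 to 0.0948) and the MAFG difference of RPMI8226 from U266 between 0.25 and 0.60 (0.0119 to 0.12). Restricting the tests to the upper 25% of genes, which tests fewer genes and leaves out MAFF and MAFG, gave 3474 genes by the F test against 6135, 2933 between RPMI8226 and KMS11 against 4838, 2899 between RPMI8226 and U266 against 5017, and 2852 between KMS11 and U266 against 4748. Calls of other named genes between lines were lost in 42 cases, with no change of direction, and counts of called genes in the lists moved by over 1.5 times in 7. With the control array alone, MAF was at 10.57, 8.96 and 4.57 in RPMI8226, KMS11 and U266. The 6 genes nearest to MAF were the same 6 with array medians centred and after quantile normalization. Signal over background is not known, which limits low values such as MAF in U266 and MAFF in every line.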
